A study of Mus musculus with 18 samples.

Results

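The clustered histone genes encode the linker histone H1 and the core histones H2A, H2B, H3 and H4. The members analysed here were the rows of the gene count table whose mouse symbol starts with Hist1h, Hist2h, Hist3h or Hist4h, without symbols marked as pseudogenes by -ps. These were 67 of the 50600 genes in the table. They comprised 6 H1, 20 H2A, 16 H2B, 12 H3 and 13 H4 genes. Hist1h2aj and Hist1h2al, counted under H2A, are annotated as pseudogenes although their symbols lack -ps. Hist1 symbols on chromosome 13 made up 54 of the members. Hist2 on chromosome 3 held 10, Hist3 on chromosome 11 held 2 and Hist4 on chromosome 6 held 1. Hist1h2al starts at base 51202727, far from the other Hist1 members, which end at base 23934851. Hist1h2bm and Hist1h2bh were not analysed here.

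Clustered histone genes are transcribed mainly during DNA replication, when each new DNA strand has to be packed into nucleosomes, and in a dividing lymphocyte their mRNA falls again when replication ends. Most of their transcripts carry no poly(A) tail. They end instead in a short stem-loop that is bound by SLBP (stem-loop binding protein), and they are transcribed under the control of NPAT. H2A, H2B, H3 and H4 form the nucleosome core, and H1 binds the DNA between cores.

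RNA-seq was made from Foxp3+ regulatory T cells (Tregs) sorted from 18 C57BL/6 mice, 1 library per mouse. Thymic CD25 KO Tregs came from 5 mice at 3–4 weeks of age in which floxed Il2ra (the gene of CD25) was deleted by a YFP/Cre fusion expressed from the Foxp3 locus. These mice had received WT splenocytes intravenously as neonates against autoimmunity, and the 5 thymic WT controls were Foxp3/RFP reporter mice of the same age. Splenic CD25 KO Tregs came from 4 CD25flox/Foxp3eGFP-Cre-ERT2/R26Y mice and were compared with 4 reporter controls. Both splenic groups received tamoxifen at 7–10 weeks of age and were collected after 10–14 days. Tissue, mouse model, age and the date in the column headers changed together and cannot be told apart. In the thymus, neither can the CD25 genotype, the Foxp3 reporter allele and the transfer of WT splenocytes, which the CD25 KO mice alone received. The libraries were made from total RNA after depletion of rRNA, without selection for poly(A) tails.

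Total counts were 17239774 to 23993674 in thymic and 25258341 to 32639570 in splenic libraries. Il2ra, whose product binds IL-2, checked the labels: in CPM (read counts scaled to the size of each library) it ranged from 524 to 682 in thymic WT and from 95.8 to 280 in thymic CD25 KO libraries. The splenic ranges were 488 to 538 CPM for WT and 168 to 208 CPM for CD25 KO. Exons outside the floxed part can still be counted after the deletion. Thymic CD25 KO mice 2 and 4 had the most Il2ra of their group, at 280 and 234 CPM, while mice 1, 3 and 5 stood at 105, 96.1 and 95.8 CPM. The Treg markers Foxp3, Ctla4, Ikzf2, Cd4 and Cd3e had counts in every library, and Foxp3 itself fell with CD25 KO by 0.74 in the thymus and by 0.55 in the spleen on the log2 scale. Marker lists of other cell types summed to low levels: B cell genes reached at most 23.9 CPM, myeloid genes 29.7 CPM, NK cell genes 16.2 CPM and erythroid genes 44.5 CPM. Genes of CD4 CD8 double-positive thymocytes reached 230 CPM in thymic WT mouse 4.

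Many core histone genes of a class are near-identical, which limits how reads can be assigned among them. The H1 genes are less alike, and each encodes its own protein. All 13 H4 genes encode the same protein. Their 312 coding bases differed by synonymous changes alone, at 5 to 46 positions per pair of genes, except that Hist1h4m and Hist1h4n have identical coding sequences. Likewise, 9 H2A genes shared 1 protein, as did 7 H3 genes of the Hist1 and Hist2 clusters. The first 60 coding bases of 4 H4 genes named in the results show how closely they are matched, with capitals at bases that differ from Hist1h4d. They lie on GRCm38 at chr13:23581602-23581661 (+), chr13:23531115-23531174 (+), chr13:23698390-23698449 (−) and chr13:21811784-21811843 (+).
Hist1h4d: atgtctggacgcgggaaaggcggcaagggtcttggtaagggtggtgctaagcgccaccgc
Hist1h4h: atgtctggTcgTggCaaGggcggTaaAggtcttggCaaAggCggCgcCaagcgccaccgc
Hist1h4c: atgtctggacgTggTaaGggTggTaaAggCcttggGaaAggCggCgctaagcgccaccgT
Hist1h4m: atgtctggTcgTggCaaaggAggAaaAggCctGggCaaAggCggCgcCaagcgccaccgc

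For each member, the transcripts were divided into windows of 75 bases, the read length, and a window was called unique when it was found in the transcripts of no other gene. In 35 members at least 50% of the windows were unique, and 5 members had no unique window: Hist2h2aa1, Hist2h2aa2, Hist2h3c1, Hist2h3b and Hist2h2bb. All 5 of these had 0 counts in all 18 libraries, which shows what the table counted and not whether the genes were transcribed. Hist1h2ao and Hist1h2ba were also at 0, and 7 further members had at most 7 counts in any library. Hist1h1t, Hist1h2ba and Hist1h2aa, which are known from the testis, were among the members at or near 0. The remaining 53 members were tested in the thymus and 52 of them in the spleen, Hist2h3c2 falling below the filter there. Exons of 26 members overlapped another gene, mostly antisense models that had 0 counts themselves. Hist1h2be and Hist1h1e overlap each other on the same strand, and Hist3h2a overlaps Trim17.

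The 3′ stem-loop was in the gene model of 33 members, in 3 versions that are shown because they divide the classes. The first stood in 24 H1, H2A, H2B and H3 genes, the second in 7 H4 genes and the third in Hist1h4j and Hist1h4b. In each, 6 bases on either side of the loop, given in capitals, are complementary. The examples lie at chr13:23739512-23739527 (+), chr13:23698089-23698104 (−) and chr13:21735437-21735452 (+) of GRCm38.
Hist1h1c: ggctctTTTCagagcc
Hist1h4c: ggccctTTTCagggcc
Hist1h4j: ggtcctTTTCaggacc

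Promoters of 60 members (250 bases before to 50 after the start, RefSeq, GRCm38.p6) were searched on both strands for the TATA box (TATAAA), the CCAAT box and the octamer (ATTTGCAT) known from H2A and H2B promoters. The TATA box was in 58.3% of them and in 13.6% of all 32851 promoters. The CCAAT box was in 85% of the members and 37.4% of all promoters, and the octamer in 20% and 1.74%. Every promoter searched of an H1 gene (6), H2A gene (18), H2B gene (14) or H3 gene (10) held a CCAAT box, and 3 of 12 H4 promoters did. The octamer was in 7 of 18 H2A and 5 of 14 H2B promoters and in no other. The stretch between the starts of Hist1h2ah and Hist1h2bk (chr13:22035644-22035820, + strand) serves a pair of genes on opposite strands, and the bases before Hist1h1b (chr13:21780626-21780745, − strand) belong to the H1 gene that changed most in the spleen. Capitals mark the motifs on either strand, and none of them overlap. A match describes the sequence and is not evidence of binding.
Hist1h2ah and Hist1h2bk: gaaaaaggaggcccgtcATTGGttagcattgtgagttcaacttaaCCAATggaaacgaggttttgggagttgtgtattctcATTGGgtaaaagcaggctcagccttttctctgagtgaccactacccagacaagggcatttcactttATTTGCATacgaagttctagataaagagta
Hist1h1b: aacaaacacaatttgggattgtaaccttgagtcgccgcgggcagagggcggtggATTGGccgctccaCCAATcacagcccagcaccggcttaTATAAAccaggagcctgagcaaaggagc

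In WT Tregs, clustered histone transcripts were more abundant in the thymus than in the spleen. Their summed level was 3967 CPM ± 926 (SD, n = 5) in the thymus and 1233 CPM ± 86.4 (SD, n = 4) in the spleen, and 51 of 52 members tested in both tissues were higher in the thymus, with a median ratio of 5.59. The exception was Hist1h4m. The difference between tissues was not tested because the models differ. Per length, the highest members over all 18 libraries were Hist1h4h (272 CPM per kb), Hist1h1c (271 CPM per kb) and Hist1h4k (241 CPM per kb). H1 genes took 26.3% to 28.5% of the summed CPM of the members in thymic WT and 37.4% to 42.9% in splenic WT libraries. Hist1h1c alone contributed 307 to 348 CPM to each splenic WT library.

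**Figure D1:**
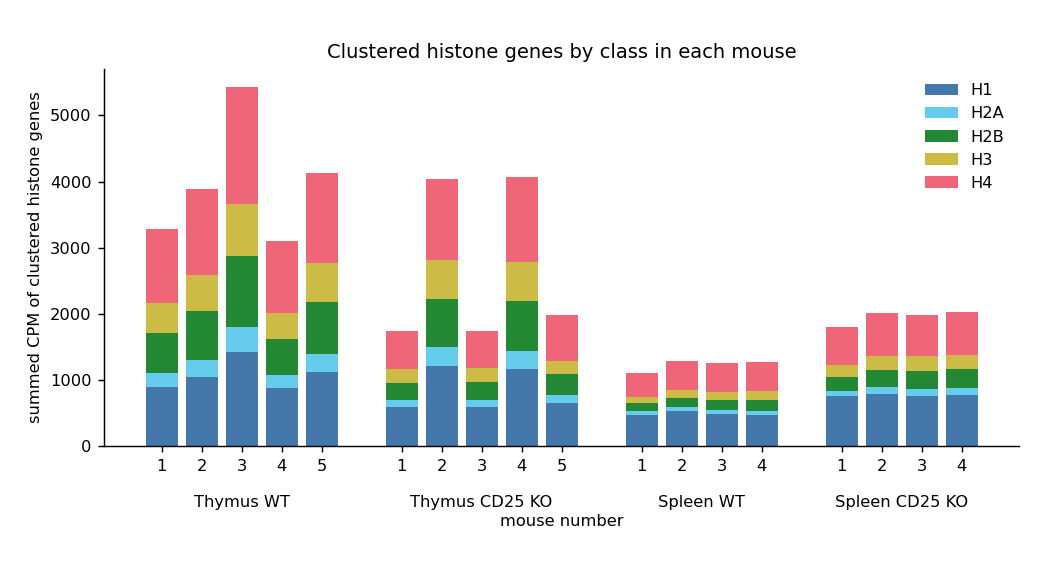
Summed CPM of the clustered histone genes in each mouse (bars, divided by histone class), for the 4 groups on the horizontal axis. Splenic CD25 KO bars (1806 to 2030 CPM) all stand above splenic WT bars (1105 to 1290 CPM), while thymic CD25 KO mice 2 and 4 reach the level of thymic WT and mice 1, 3 and 5 do not.

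In splenic Tregs, clustered histone transcripts rose with CD25 KO. The sum over the 67 members was 1105, 1290, 1264 and 1274 CPM in the WT mice and 1806, 2020, 1984 and 2030 CPM in the CD25 KO mice, a ratio of means of 1.59. Of 52 members tested, 46 were called higher and 0 lower by edgeR's quasi-likelihood test at an FDR below 0.01 (47 and 0 by DESeq2), where 5.90% of all 17463 genes were called higher and 3.55% lower. At an unadjusted p below 0.05, 50 members were higher and 0 lower in edgeR, beside 16.4% and 13.6% of all genes. The log2 fold changes were above 0 for all 52, with a median of 0.90 and a range of 0.13 to 1.63 (0.33 to 1.63 for the 46 called), and the median over all genes was −0.01. Every CD25 KO library lay above every WT library for 48 of the 52 members, compared with 11.2% of all genes. Of the 31 tested members with at least 50% unique windows, 26 were called, with a median log2 fold change of 0.77. In bulk RNA a larger share of replicating cells and more histone mRNA per cell cannot be told apart. When all 18 libraries shared a single estimate of the spread, 1 of 53 members was called in the spleen.

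Among the H1 genes, all 5 tested were called higher in the spleen. Hist1h1b, which encodes the subtype H1.5, had WT levels of 14.0, 18.2, 18.8 and 18.1 CPM, and CD25 KO levels of 36.2, 44.3, 49.2 and 50.6 CPM. Its groups did not overlap, and its log2 fold change was 1.38 ± 0.11 (SE, edgeR adjusted p = 6.17e-07). Hist1h1c (H1.2), the member with the highest CPM, rose least in its class, from 315, 348, 316 and 307 CPM to 454, 455, 424 and 444 CPM (0.47 ± 0.05 on the log2 scale, edgeR adjusted p = 1.89e-05). Hist1h1d (H1.3) rose by 0.88 and Hist1h1e (H1.4) by 0.83 on that scale. Every window of Hist1h1b was unique, and 93.3% of those of Hist1h1c.

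Of 13 H2A genes tested 11 were called higher in the spleen, and of 12 H2B genes 10 were. Hist1h2ah had 0.620, 0.952, 0.557 and 0.512 CPM in the WT libraries and 1.29, 2.02, 2.62 and 2.31 CPM in the CD25 KO libraries, the largest log2 fold change of the members (1.63 ± 0.27 SE, edgeR adjusted p = 0.000586) with 8.46% of its windows unique. Its neighbour Hist1h2bk, read from the same stretch in the other direction, went from 2.75, 3.55, 4.67 and 4.02 CPM to 7.53, 8.62, 11.5 and 11.2 CPM (1.38 ± 0.17 SE, edgeR adjusted p = 4.00e-05). Hist1h2bj, Hist1h2af, Hist1h2ag, Hist1h2ae and Hist1h2ad rose by 1.36, 1.33, 1.30, 1.22 and 1.22 on the log2 scale. Of the H2A and H2B genes with the highest CPM, Hist1h2ab rose by 1.19, Hist1h2ak by 1.10, Hist1h2bb by 1.07, Hist1h2bg by 0.77 and Hist1h2be by 0.49. Hist1h2bl and Hist1h2bn rose by 1.17 and 1.13. Hist2h2ac, an H2A gene of the Hist2 cluster, rose by 0.53.

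Of 12 pairs of H2A and H2B models that stand head to head with 175 to 305 bases between them, 9 were tested in the spleen. Their partners differed by 0.03 to 0.45 in log2 fold change. The widest gap was between Hist1h2ae at 1.22 and Hist1h2bg at 0.77.

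All 9 H3 genes tested were called higher in the spleen. Hist1h3b measured 4.45, 5.53, 6.25 and 6.11 CPM with CD25 intact and 10.3, 13.9, 17.4 and 16.6 CPM without it (1.38 ± 0.15 SE, edgeR adjusted p = 1.77e-05). Hist1h3c and Hist1h3g rose by 1.17 and 1.08 on the log2 scale. Hist1h3e and Hist1h3f, the H3 genes with the highest CPM, rose by 0.62 and 0.58.

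Of 13 H4 genes, 11 were called higher in the spleen, with smaller changes. Hist1h4d, with the highest CPM of its class, had 107.1, 116.5, 127.3 and 125.9 CPM in the WT libraries and 146, 155, 145 and 154 CPM in the CD25 KO libraries (0.33 ± 0.06 SE on the log2 scale, edgeR adjusted p = 0.000830). The groups did not overlap, although this was among the 3 smallest log2 fold changes measured. Hist1h4h and Hist1h4c rose by 0.45 and 0.51, and Hist1h4f, named for its low thymic value, by 1.06. The median over H4 was 0.69, and it was 0.88 over H1, 1.10 over H2A, 1.02 over H2B and 1.06 over H3.

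The 6 members that were tested and not called in the spleen were Hist3h2a (0.13), Hist2h2ab (0.19), Hist1h4i (0.34), Hist2h2be (0.37), Hist3h2ba (0.43) and Hist4h4 (0.69), in log2 fold change. All but Hist1h4i lie outside Hist1. The Hist1 cluster had 44 of 45 members called, Hist2 had 2 of 4, Hist3 had 0 of 2 and Hist4 had 0 of 1, and at an unadjusted p below 0.05 the last 2 clusters had 1 each. Hist3h2a had 7.01, 5.78, 7.96 and 6.97 CPM in the WT libraries and 7.07, 7.64, 5.27 and 10.1 CPM in the CD25 KO libraries, so the groups overlapped. Hist4h4 spread widely in splenic WT, with 19.2, 50.6, 21.8 and 38.7 CPM, beside 45.4, 68.2, 49.4 and 46.9 CPM in splenic CD25 KO. Hist2h2be, whose windows were all unique and whose model holds no match to the stem-loop pattern, had 5.59 to 6.04 CPM in WT against 7.21 to 7.79 CPM in CD25 KO mice.

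**Figure D2:**
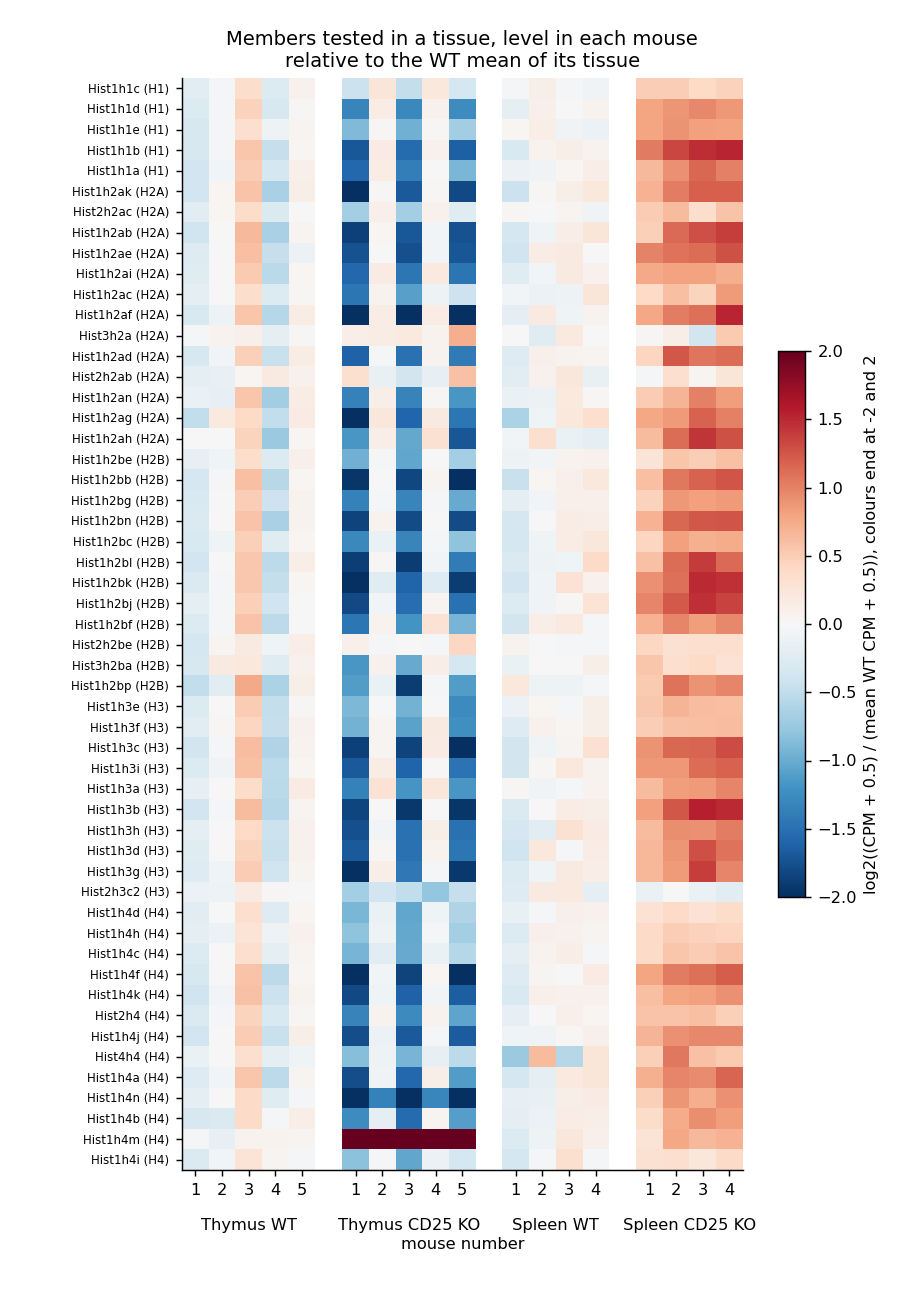
Level of the 53 members tested in a tissue (rows, by class and mean CPM) in each of the 18 mice (columns), as log2 of CPM + 0.5 over the WT mean of the same tissue + 0.5. Splenic CD25 KO columns are above the WT mean in nearly all rows, thymic CD25 KO columns 1, 3 and 5 are below it in most rows, and columns 2 and 4 stay near it in most rows. Hist1h4m lies beyond the end of the colours in all 5 thymic CD25 KO columns.

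In thymic Tregs, the 5 CD25 KO mice did not move together. The summed level was 3277, 3889, 5437, 3097 and 4135 CPM in the WT mice and 1738, 4045, 1739, 4077 and 1979 CPM in the CD25 KO mice. Mice 2 and 4, the same libraries that had the most Il2ra, lay within the WT range, and mice 1, 3 and 5 lay below every WT mouse. The ratio of means was 0.68. Of 53 members tested, 1 was called lower (Hist1h4n) and 1 higher (Hist1h4m), where 2.99% of all 16986 genes were called lower and 3.17% higher. The log2 fold changes were below 0 for 49 of the 53, with a median of −0.60 beside a median within 0.01 of 0 over all genes. At an unadjusted p below 0.05, 11 members were lower and 2 higher, where 18.5% of all genes were lower and 19.4% higher. Every CD25 KO library lay below every WT library for 2 members, Hist1h4n and Hist2h3c2, compared with 9.17% of all genes.

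Mice 1, 3 and 5 lay below every WT mouse for 48 of the 53 members, compared with 17.1% of all genes. These 3 mice were picked after their summed levels had been seen to be low, so the count is a description. Hist1h1b, for example, had 88.6, 108, 164, 80.4 and 114 CPM in thymic WT and 33.9, 124.8, 37.9, 118 and 35.5 CPM in thymic CD25 KO mice (log2 fold change −0.64 ± 0.38 SE, edgeR adjusted p = 0.239). Hist1h2bk had 32.9, 39.9, 58.8, 29.0 and 41.7 CPM in the WT libraries, 8.95, 13.1 and 10.5 CPM in CD25 KO mice 1, 3 and 5 and 34.2 and 33.8 CPM in mice 2 and 4, and its log2 fold change of −0.98 ± 0.37 was the second lowest tested (edgeR adjusted p = 0.0686). Hist1h4f ranged from 109 to 234 CPM in WT mice, and was at 36.6, 43.5 and 37.6 CPM in CD25 KO mice 1, 3 and 5 and at 152 and 163 CPM in mice 2 and 4. For these genes the range among CD25 KO mice was wider than the distance between the group means. Hist1h1c, with 393 to 607 CPM in WT, showed 351, 561, 340, 548 and 372 CPM in CD25 KO mice, a log2 fold change of −0.11 ± 0.17 (edgeR adjusted p = 0.668). The H1 share of the summed CPM was 34.3%, 30.0%, 34.0%, 28.8% and 32.9% in the thymic CD25 KO mice, above the 28.5% that was the highest share in thymic WT.

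Without CD25 KO mice 2 and 4, 42 of 53 members were called lower in the thymus and 1 higher, with a median log2 fold change of −1.41, where 7.07% of all 17433 genes were called lower and 4.45% higher. These 2 libraries were known to be high in the members when they were left out, so this count describes the other 3 mice and does not replace the comparison of all 5. Leaving out any 1 mouse left the count at 2. The members with the lowest values in these 3 mice, apart from Hist1h4n, were Hist1h2af (−2.22), Hist1h4f (−1.997) and Hist1h3c (−1.94). In the same fit, Hist1h1c stood at −0.41 and Hist2h2ac at −0.52, and Hist2h2be, Hist2h2ab and Hist3h2a were above 0 at 0.19, 0.26 and 0.41. None of these 5 passed the test.

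Hist2h2be, Hist2h2ab and Hist3h2a also had the highest thymic values after Hist1h4m with all 5 mice, at 0.12, 0.11 and 0.31, and none of these passed the test. Hist3h2a had 6.49 to 7.99 CPM in thymic WT mice and 8.20, 8.34, 8.60, 7.88 and 12.6 CPM in CD25 KO mice (edgeR adjusted p = 0.116). Hist2h3c2, with 1.21 to 1.57 CPM in WT mice and 0.585 to 0.921 CPM in CD25 KO mice, had a log2 fold change of −0.81 ± 0.19 (edgeR adjusted p = 0.0134).

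**Figure D3:**
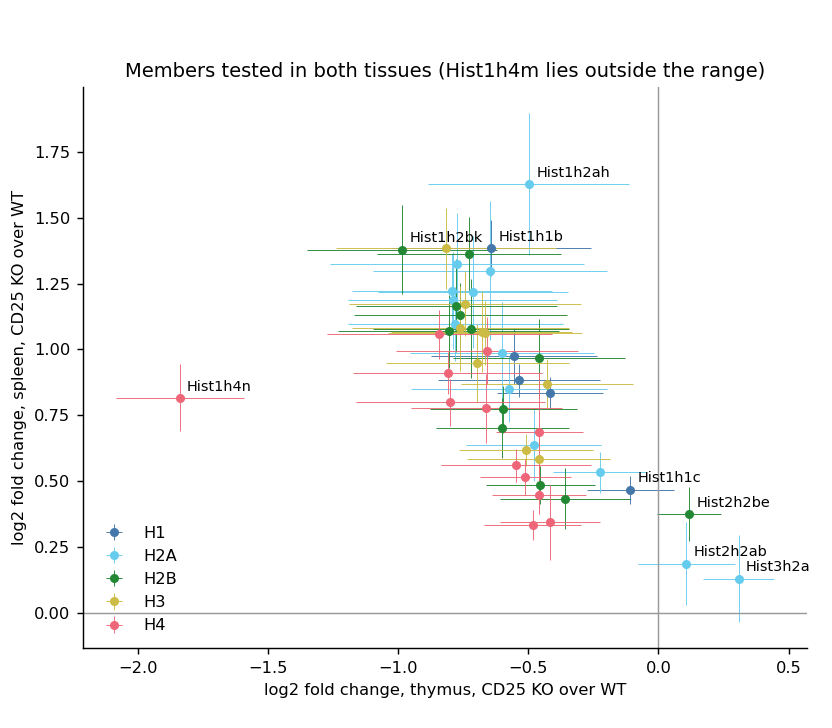
Log2 fold change of CD25 KO over WT in the thymus (horizontal) and in the spleen (vertical) for 51 members, coloured by class, with bars of 1 SE. Hist1h4m lies outside the range. All points lie above 0 for the spleen, and all but Hist2h2be, Hist2h2ab and Hist3h2a lie left of 0 for the thymus, where most bars are longer.

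Members that rose more in the spleen tended to have lower thymic values. Across the 50 members tested in both tissues without Hist1h4m and Hist1h4n, Spearman's rho between the 2 log2 fold changes was −0.76 and Pearson's r −0.76. No library is shared between the tissues, but the members share libraries within a tissue and share reads, so they are not independent. Across the same members, the WT level in the thymus over that in the spleen also went with both changes. Its Spearman's rho was 0.915 with the splenic and −0.772 with the thymic log2 fold change. This ratio uses the same WT libraries as the fold changes, and its part was not tested. Whether CD25 KO acted unequally in the tissues was tested in 1 fit of all 18 libraries, and the test called the difference for 11 of 53 members: 10 were higher in the spleen and 1 (Hist1h4m) was lower, where 4.50% of all 18686 genes were called higher and 2.49% lower. The 10 were Hist1h1b, Hist1h1e, Hist1h2ae, Hist1h2bc, Hist1h2bj, Hist1h2bk, Hist1h3b, Hist1h4c, Hist1h4h and Hist1h4n. The difference for Hist1h1e was 1.27 ± 0.24 (SE, edgeR adjusted p = 0.00152), for Hist1h4c 1.04 ± 0.21 (edgeR adjusted p = 0.00249) and for Hist1h2bk 2.38 ± 0.49 (edgeR adjusted p = 0.00261), all on the log2 scale. The number of calls rested on single libraries. It was 41 without thymic CD25 KO mouse 2 and 38 without mouse 4 of that group. It was 7 without thymic CD25 KO mouse 5, and 6 without thymic CD25 KO mouse 1 or 3, thymic WT mouse 2, 3 or 5 or splenic WT mouse 2 or 4. It was 5 without splenic WT mouse 1 or 3 or splenic CD25 KO mouse 2, 3 or 4.

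Hist1h4m and Hist1h4n, on opposite strands of chromosome 13, were the only members called in the thymus with all 5 mice. Over the 402 bases that both transcripts hold, a single base differs, G36A, counted from 1 at the transcript start with the base of Hist1h4m first. It stands 3 bases before the first coding base and is in capitals in the 30 bases around it, at chr13:21811766-21811795 (+) and chr13:21832147-21832176 (−) of GRCm38.
Hist1h4m: tacagttttgtcttcGtcatgtctggtcgt
Hist1h4n: tacagttttgtcttcAtcatgtctggtcgt

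Hist1h4m had 1, 0, 2, 2 and 2 counts in the thymic WT libraries and 312, 811, 345, 789 and 453 counts in the thymic CD25 KO libraries. The ratio of CD25 KO to WT was 427 with an exact 95% counting interval of 207 to 1060, from 2710 and 7 counts. The interval pools the mice of each group and leaves out the spread between mice and the assignment of reads. Hist1h4n had 62.5, 70.2, 92.0, 59.5 and 68.2 CPM in the WT libraries and 10.4, 27.2, 14.0, 28.4 and 16.9 CPM in the CD25 KO libraries (log2 fold change −1.84 ± 0.24 SE, edgeR adjusted p = 0.00112). Neither gene's groups overlapped. The 2 genes taken as a sum had 59.6 to 92.1 CPM in WT mice and 26.0, 64.6, 32.8, 63.9 and 40.7 CPM in CD25 KO mice, a ratio of 0.65, beside 0.68 for all members. In the sum, CD25 KO mice 2 and 4 again lay within the WT range. In the spleen both genes had counts in both genotypes: Hist1h4m stood at 8.29 to 11.9 CPM in WT mice and 12.4 to 17.6 CPM in CD25 KO mice, and Hist1h4n at 5.23 to 6.70 and 8.44 to 11.6 CPM. Of the 75-base windows of Hist1h4m, 89.0% were also in Hist1h4n, so a fragment can be given to either gene only where it covers this base or lies past the shared stretch. The changes of the single genes in the thymus are therefore uncertain, and the part of read assignment in them was not tested.

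**Figure D4:**
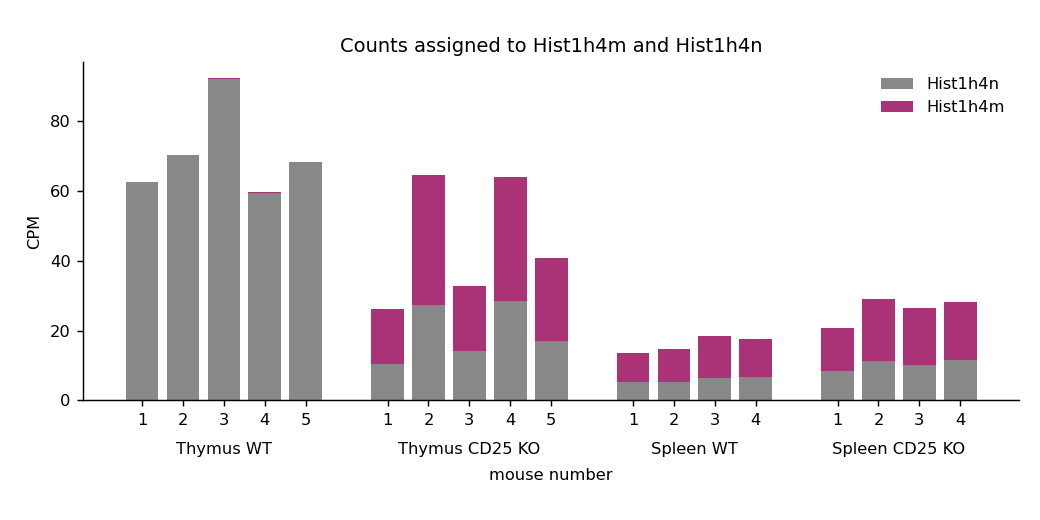
CPM counted for Hist1h4n (grey) and Hist1h4m (purple) in each mouse, stacked. Hist1h4m is nearly absent from the 5 thymic WT bars and present in all other bars, while the height of the stack in thymic CD25 KO mice 2 and 4 (64.6 and 63.9 CPM) lies within the thymic WT range.

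Lists of genes of the same processes were read in the same fits. Over all genes, edgeR called 5.90% higher and 3.55% lower in the spleen, and 3.17% and 2.99% in the thymus. At an unadjusted p below 0.05, 18.5% of all genes were lower in the thymus and 13.6% in the spleen. S phase genes, 40 with the replication clamp Pcna and the Mcm helicase, had 10 called higher and 0 lower in the spleen (median log2 fold change 0.25), and 0 called in the thymus by edgeR or DESeq2, where 38 were below 0. At an unadjusted p below 0.05 in edgeR, 9 of them were lower in the thymus and 0 were lower in the spleen. The 3 with the largest change in the spleen were Rrm2 (1.00), Ccna2 (0.94) and Uhrf1 (0.57), known for nucleotide reduction, progress through S phase and maintenance of DNA methylation. Mitosis genes had 15 of 19 called higher in the spleen (median 0.80), led by Hmmr (1.27), Ccnb2 (1.20) and Ccnb1 (1.02). In the thymus 0 of 20 were called by edgeR or DESeq2 and all 20 were below 0, with 0 at an unadjusted p below 0.05. Without thymic CD25 KO mice 2 and 4, 29 of 40 S phase and 19 of 20 mitosis genes were called lower there. Of all 17433 genes, 7.07% were called lower in that fit. Mice 2 and 4 were known to be high in the histone members when they were left out. Both lists were also higher in them than in mice 1, 3 and 5, so these counts are a description.

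By summed level, the S phase list had 1285, 1379, 1374 and 1374 CPM in splenic WT and 1467, 1605, 1571 and 1540 CPM in splenic CD25 KO mice, a ratio of 1.14, and the mitosis list a ratio of 1.81. The clustered histone genes, with a ratio of 1.59, lay between them. Their level per S phase level was 0.860 to 0.936 in splenic WT and 1.23 to 1.32 in splenic CD25 KO mice, with no overlap. In the thymus it was 1.73 to 2.37 in WT and 1.51 to 1.98 in CD25 KO mice, and the groups overlapped. The S phase list had 1786 to 2294 CPM in thymic WT, 1095, 1155 and 1004 CPM in thymic CD25 KO mice 1, 3 and 5, and 2154 and 2055 CPM in mice 2 and 4. The part of these lists in the change of the histone genes was not tested.

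Of 17 genes for histone mRNA processing and turnover, 2 rose in the spleen by edgeR (3 by DESeq2): Slbp, which binds the stem-loop (0.27 ± 0.06 SE, edgeR adjusted p = 0.00646), and Casp8ap2, a partner of NPAT in histone transcription (0.28 ± 0.07 SE, edgeR adjusted p = 0.00948). In the thymus Ncbp2, of the cap-binding complex, was called lower (−0.31) and 0 were called higher by edgeR, with 9 lower and 2 higher at an unadjusted p below 0.05. The 2 higher were Casp8ap2 (0.38) and Npat (0.33). DESeq2 called 4 of 16 lower and 0 higher there. Slbp in the thymus had 54.4 to 67.0 CPM in WT mice and 34.3, 60.5, 36.1, 57.4 and 46.5 CPM in CD25 KO mice (edgeR adjusted p = 0.118). Of 25 histone chaperones, 2 were higher in the spleen, Asf1b (0.71) and Anp32e (0.34), 1 was lower, the importin Ipo4 (−0.56), and 0 were called in the thymus, with 10 lower and 2 higher at an unadjusted p below 0.05, and 4 lower and 2 higher called by DESeq2. Their summed ratios were 0.96 in the thymus and 1.03 in the spleen. Over all genes in edgeR, 5.90% were called higher and 3.55% lower in the spleen, and 3.17% and 2.99% in the thymus. The edgeR calls of the chaperones in the spleen were near these shares. At an unadjusted p below 0.05 in the thymus, 18.5% of all genes were lower and 19.4% higher. DESeq2 called 1246 of all 16986 genes lower and 1517 higher in the thymus, and 831 of 17463 lower and 1315 higher in the spleen.

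Of 10 tested histone genes outside the clusters, most of whose mRNA is polyadenylated, 4 were higher and 0 lower in the spleen by edgeR (1 lower at an unadjusted p below 0.05 and 1 by DESeq2). These included H1f0, a linker histone of differentiated cells (0.77 ± 0.10 SE, edgeR adjusted p = 4.70e-05), H2afx (0.42) and Cenpa, the centromeric H3 (0.41). H3f3b, which encodes the replacement histone H3.3, was the other gene called higher (0.25 ± 0.06 SE, edgeR adjusted p = 0.00627). In the thymus H3f3b was called higher as well (0.41 ± 0.06 SE, edgeR adjusted p = 0.00232) and 0 were called lower. At an unadjusted p below 0.05 in edgeR, 3 were lower and 1 higher there, and DESeq2 called 1 lower and 1 higher. The shares over all genes are those given above for the processing genes and chaperones. The summed CD25 KO level of the histone genes outside the clusters was 0.99 times that of thymic WT and 1.13 times that of splenic WT.

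Of 45 protein-coding genes that are not histones and lie between Hist1 members (chr13:21715763-23934462, the start positions of the first and last, without the distant Hist1h2al), 3 passed the filter: Prss16, Zfp322a and Abt1. None was called in either tissue by edgeR or DESeq2, and at an unadjusted p below 0.05 Zfp322a alone passed, in the spleen (log2 fold change 0.19). Over the longer span to Hist1h2al, 3 of 104 genes were called lower and 1 higher in the thymus (2.99% and 3.17% of all genes). In the spleen, 1 of 102 was called lower and 9 higher (3.55% and 5.90% of all genes).

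**Figure D5:**
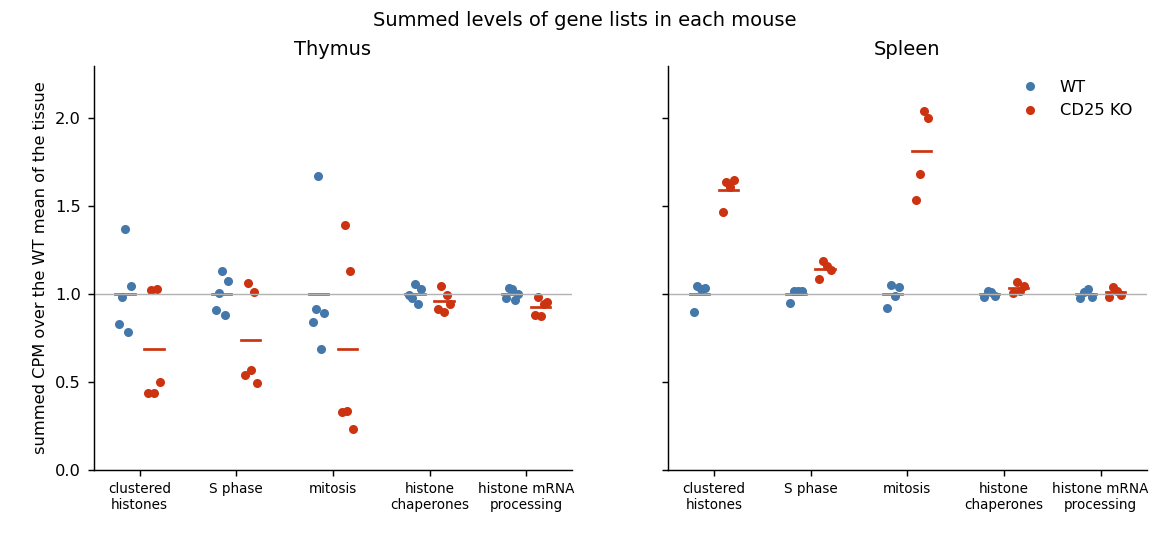
Summed CPM of 5 gene lists in each mouse, divided by the WT mean of its tissue (points), with group means (short lines), for thymus and spleen. In the spleen, clustered histones, S phase genes and mitosis genes stand apart between genotypes and chaperones and processing genes stay near 1. In the thymus, 3 CD25 KO mice are low for histones, S phase and mitosis.

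Values that moved with genotype beside these results were the following. NK cell markers summed to 4.71 to 8.02 CPM in splenic WT and 10.9 to 16.2 CPM in splenic CD25 KO mice, and 1 of 2 tested (Klrb1c) was called higher, with Ncr1 and Klre1 at 0 in some libraries. Of 3 B cell markers tested in the spleen, Pax5 was called higher and 1 was below 0 (log2 fold change −0.45). Of 4 myeloid markers tested there, Lyz2 was called higher and 2 were below 0, the lowest at −0.82. At an unadjusted p below 0.05 in edgeR, 1 B cell and 1 myeloid marker were lower. Over all genes, 5.90% were called higher in the spleen. The summed B cell list had a ratio of 1.01 in the spleen and the myeloid list 1.26. The median GC content of the members was 58.8%, against 49.0% for the genes tested in the thymus, and Spearman's rho between GC content and log2 fold change over all genes came to −0.40 for thymic and −0.17 for splenic libraries. The part of these values in the result was not tested. With a GC trend removed, 47 members were called in the spleen and 2 in the thymus.

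Gene models of different length gave like directions. Among members whose model ends within 100 bases of the stem-loop, the median log2 fold change was 1.06 in the spleen and −0.71 in the thymus. Among those whose model runs over 100 bases past it, it was 0.66 and −0.48. Called higher in the spleen were 13 of 13 in the first set and 11 of 14 in the second. The difference between the sets was not tested.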

How the data were processed

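The deposited table holds raw read counts per gene for all 18 libraries, made by the authors from 75-base paired-end reads of rRNA-depleted total RNA. Per the submitters' processing notes, STAR 2.5.0b and featureCounts 1.5.0 were used on GRCm38, with GENCODE M13 gene models. The strand setting and the treatment of reads that match several genes are not given in the sources used here. Symbols, coordinates and transcripts came from GENCODE M21, in which 50376 of 50600 identifiers have a symbol. No genome was searched, so unique windows were judged over annotated transcripts.

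Analyses used R 4.3.3, edgeR 4.0.16 (filterByExpr, TMM, quasi-likelihood test, Benjamini-Hochberg over all genes tested, FDR below 0.01) within each tissue, and 1 fit of all 18 libraries for the difference between tissues. DESeq2 1.42.0 was an alternative. CPM were scaled by TMM over the 18 libraries. A floor of 3 counts equalled up to 0.174 CPM for the thymus and 0.119 CPM for the spleen. Without molecular identifiers, such floors and intervals hold counting error alone. Standard errors came from the fold change and the F statistic. The test was checked on simulated counts.

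Members named with values were the 3 with the highest mean CPM of each class, every called member or the 15 with the largest change, and the 3 highest and 3 lowest in each tissue. Hist1h4i, Hist1h4k, Hist2h3c2, Hist3h2ba and Hist4h4 were added after their values were seen. The members and lists were chosen with earlier results of these data known. Each library is 1 mouse. Thymic mouse numbers come from the labels. Splenic numbers only name mice. Counts of replicate libraries differed by more than sampling noise (chi-square of 3.77 to 48.4 per gene).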

Additional observations from a re-analysis of the deposited data

Results flagged for a closer look

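The following values are given without an explanation. The effect of CD25 KO differed between tissues for 11 members when the difference itself, spleen minus thymus on the log2 scale, was tested with edgeR. The differences were 2.05 for Hist1h1b, 2.67 for Hist1h4n, 2.38 for Hist1h2bk, 2.11 for Hist1h2bj, 0.92 for Hist1h4h, 2.03 for Hist1h2ae, 1.27 for Hist1h1e, 1.32 for Hist1h2bc, 1.04 for Hist1h4c and 2.22 for Hist1h3b. For Hist1h4m the difference was −7.96, which depends on the prior count because thymic WT libraries had 0 to 2 counts.

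Among 192 groups of values searched for a sample far from the rest, 11 had one, and chance gives about 1 in 20 groups. Splenic WT mouse 1 was the lowest of its group for the summed members (1105 CPM, others from 1264 CPM), the summed H4 genes (355 CPM, others from 439 CPM), the S phase list (1285 CPM, others from 1374 CPM), Hist1h1b (14.0 CPM), Hist1h4h (50.2 CPM) and Hist1h2ad (1.20 CPM). Splenic CD25 KO mouse 1 was the lowest of its group for the summed H2B genes (211 CPM, others from 271 CPM) and Hist1h2bg (39.2 CPM). Thymic CD25 KO mouse 5 was the highest for Hist3h2a (12.6 CPM) and Hist2h2be (18.1 CPM). Thymic WT mouse 3 was the highest for the mitosis list (1772 CPM, others up to 973 CPM).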

How the results depend on the processing

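With RLE or upper-quartile normalization, DESeq2, no filter, at least 10 counts in every sample, a GC trend removed or an FDR below 0.05, the thymus gave 2 or 3 calls among the members and the spleen 46 to 49. With the thymic mouse number as a replicate block there were 2 calls, and 2 with the GC trend removed as well. The numbers did not pair the mice (deviations of same-numbered mice correlated at −0.18 to 0.11). With all 18 libraries in 1 fit, 4 members were called in the thymus and 1 in the spleen; this fit shares 1 estimate of the spread over both tissues. Counting only members with mostly unique windows gave 0, 26 and 6 calls for the thymus, the spleen and the difference. Without thymic CD25 KO mice 2 and 4 there were 43 calls in the thymus and 49 for the difference. These mice were known to be high in the members when they were left out. The alternative for the difference was added after the data were seen. The 11 calls for the difference became 7 with upper-quartile normalization, 29 with DESeq2, 36 with no filter and 48 at an FDR below 0.05. Leaving out each mouse in turn gave 2 calls in the thymus, 44 to 46 in the spleen and 5 to 41 for the difference. Hist3h2a in the spleen, not called, ranged from −0.052 (without splenic CD25 KO mouse 4) to 0.27 when 1 mouse was left out. Over all genes, 508 were lower and 539 higher in the thymus, against 1246 and 1517 with DESeq2, 1585 and 1296 with all 18 libraries in 1 fit, and 158 and 51 with the replicate block. In the spleen 620 and 1031 became 371 and 424 with all 18 libraries in 1 fit. At 10 or more counts in every library Hist1h4m was not tested, and 1 of the 2 thymic calls was shared. The summed ratio was 0.71 and 1.64 without TMM, and 0.65 and 1.66 without Hist1h1c. The causes were not tested.

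The number of mice limits the precision. Reads shared between near-identical genes limit statements on single members under 50% unique windows. The 2 tissues differ in model, age and header date.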
